A study of Mus musculus with 4 samples.

Results

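The 7 genes described here, Crabp1, Gng13, Kcng2, Mamdc2, Tppp3, Gpha2 and Bbox1, were found by symbol among the 27998 genes of a count table from mouse back skin. They were selected on UMI levels in these same libraries, as the largest decreases in fibroblasts or basal keratinocytes under imiquimod. Their imiquimod values in both cell classes are therefore given as a description, with no test.

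The study measured single cells of mouse back skin in 4 libraries. Imiquimod, a Toll-like receptor agonist, is applied to mouse skin to bring on an inflammation that resembles psoriasis, and Ovol1 is a zinc finger gene regulator active in epithelia. The libraries were labelled Ovol1 null with imiquimod, Ovol1 null untreated, control with imiquimod and control untreated, all of strain CD1 and with 1 library per group. Treated mice of 7 to 8 weeks had been given 62.5 mg of a 5% imiquimod cream 1 time on the shaved back, and the same age stands in the protocol text of the untreated samples. The time from cream to harvest, the number of animals per library, the sorting gate and the exons missing from the null allele are not stated in the sources at hand.

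A value below is the number of unique molecular identifiers (UMIs) of a gene in a cell class, scaled to the UMI total of that class in that library as CPM. Ratios are imiquimod over untreated unless stated otherwise, brackets hold exact 95% intervals for counting error only, and no replicate spread could be had. Cell classes stand for clusters named from marker genes, so that "fibroblast" means fibroblast-like and so on. A gene counted as measured in a comparison when both libraries together held at least 20 of its UMIs in the class.

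Ovol1 itself had 2509 UMIs (45.4 CPM) in the labelled null imiquimod library and 786 (24.3 CPM) in the labelled null untreated library, against 676 (22.8 CPM) and 341 (9.13 CPM) in the control imiquimod and untreated libraries. It was thus not lower in the libraries labelled null. A 3′ tag may lie outside the deleted part of a gene, in which case this checks nothing. The libraries held 5564 to 6302 barcodes and 30951922 to 57245460 UMIs. The labelled null imiquimod library stood apart in depth, with a median of 8394 UMIs per kept cell against 4762 to 5734.5 in the others, and 995 of its cells were named from a clustering of that library alone. Between libraries, 234 barcode sequences were shared, which touched 112 to 121 kept cells each. Fibroblasts had all 8 of their markers in every library, with a summed level of 55293 CPM in labelled null imiquimod skin and 142412 CPM in labelled null untreated skin, and 58157 and 164801 CPM in the control pair. Basal keratinocytes also had all 8 of theirs, between 21951 and 31660 CPM.

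The members belong to unrelated gene families. Crabp1 binds retinoic acid in the cytoplasm and is known from embryonic mesenchyme and the dermal papilla. Gng13 is a gamma subunit of heterotrimeric G proteins, best known from taste cells, and Kcng2 is a silent potassium channel subunit that modifies Kv2 channels. Mamdc2 is a secreted proteoglycan with MAM domains, and Tppp3 belongs to a family of proteins that promote tubulin polymerization. Gpha2 is the alpha subunit of the hormone thyrostimulin and is known from stem cells of the corneal limbus, and Bbox1 carries out the last step of carnitine synthesis.

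In the GENCODE annotation of GRCm38, the build called mm10, Crabp1 is a protein-coding gene at chr9:54764748-54773110 on the plus strand, and Gng13 lies at chr17:25717171-25719406, also on the plus strand. Gpha2 lies on the plus strand at chr19:6226380-6227768. Mamdc2, Tppp3 and Bbox1 are minus strand genes at chr19:23302609-23448442, chr8:105467493-105471526 and chr2:110262697-110314560. Exons of Gng13 overlap Chtf18 and those of Gpha2 overlap Ppp2r5b, each on the opposite strand, with 264 and 2259 UMIs of their own in the table. The strand setting of the counting is not stated in the sources at hand.

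RefSeq start windows of build GRCm38.p6 were at hand for 4 of the 7 members. They are shown because each of these genes was at least 2-fold lower under imiquimod in fibroblasts of 1 or both pairs. Crabp1 was so only in the control and Bbox1 only in the labelled null, so these genes were not all lower in the same pair. Each window is the 250 bases before a RefSeq start, read on the strand of the gene. The windows are chr9:54764498-54764747 for Crabp1, chr17:25716922-25717171 for Gng13, chr19:6226151-6226400 for Gpha2 and chr2:110305726-110305975 for Bbox1, the last inside the GENCODE gene. Kcng2, Mamdc2 and Tppp3 had no entry. Capitals mark a match to GGGCGG, the GC box, or to TATAAA, the TATA box, on either strand.
Crabp1: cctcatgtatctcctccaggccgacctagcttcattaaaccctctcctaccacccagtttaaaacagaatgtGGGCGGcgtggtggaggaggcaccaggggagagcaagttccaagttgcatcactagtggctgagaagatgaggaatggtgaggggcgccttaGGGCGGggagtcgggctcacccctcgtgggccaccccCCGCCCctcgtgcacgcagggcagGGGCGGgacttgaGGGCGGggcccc
Gng13: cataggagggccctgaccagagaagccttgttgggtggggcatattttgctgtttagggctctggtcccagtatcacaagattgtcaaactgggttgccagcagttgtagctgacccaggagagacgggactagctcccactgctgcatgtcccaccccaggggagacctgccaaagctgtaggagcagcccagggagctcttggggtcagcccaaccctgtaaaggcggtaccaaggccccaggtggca
Gpha2: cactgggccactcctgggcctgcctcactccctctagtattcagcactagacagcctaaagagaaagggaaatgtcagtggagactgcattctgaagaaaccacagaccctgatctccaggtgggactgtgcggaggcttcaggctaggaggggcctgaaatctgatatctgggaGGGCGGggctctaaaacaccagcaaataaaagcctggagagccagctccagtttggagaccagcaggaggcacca
Bbox1: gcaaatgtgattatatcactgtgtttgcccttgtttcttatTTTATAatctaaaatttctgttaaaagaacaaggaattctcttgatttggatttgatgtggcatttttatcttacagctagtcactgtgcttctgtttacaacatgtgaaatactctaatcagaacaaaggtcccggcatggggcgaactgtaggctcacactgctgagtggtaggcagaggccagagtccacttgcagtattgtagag

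The Crabp1 window held 5 GC boxes, 4 of them read as the gene at 178, 86, 25 and 12 bases before the start and 1 on the opposite strand at 49. Gpha2 had 1 GC box at 75 bases, Bbox1 had 1 TATA box on the opposite strand at 209 bases, and the Gng13 window shown had no match. A second Gng13 window, chr17:25717278-25717527 inside the gene and not shown, had a GC content of 69.2% and 3 GC boxes, read as the gene at 123 and 118 bases and on the opposite strand at 39. Of 32851 RefSeq windows of this length, 32.7% held GGGCGG and 12.4% TATAAA on either strand. The core CCGTTA of the Ovol family was in 2.18% of all windows and the nuclear receptor half-site AGGTCA in 14.0%, and in none of the member windows. The GC content was 63.6% for Crabp1, 58.8% for Gng13, 55.2% for Gpha2 and 39.6% for Bbox1, against a median of 52.4% over all windows. A match is a run of letters and not a bound site.

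In untreated skin the 7 genes were not all highest in the same cell class. Fibroblasts still held 54.8% to 98.1% of the UMIs of each member except Bbox1. Of the UMIs of all genes in kept cells, they held 12171637 of 32298126 in labelled null untreated skin and 22082497 of 37331165 in control untreated skin. The lowest share, 54.8%, was that of Tppp3 in the labelled null. Crabp1, Gng13 and Kcng2 were highest in fibroblasts. Mamdc2 was highest in mural cells, the contractile cells around vessels, with 90.4 CPM in labelled null untreated skin and 87.9 CPM in control untreated skin, against 36.4 and 49.0 CPM in the fibroblasts of the same libraries. Tppp3 was highest in fibroblasts and next in basal keratinocytes of the labelled null, and lymphatic endothelial cells of control untreated skin had 372 CPM. Gpha2 was highest in fibroblasts and also present in bulge and basal keratinocytes. Bbox1 was an epidermal gene, highest in suprabasal keratinocytes.

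**Figure D1:**
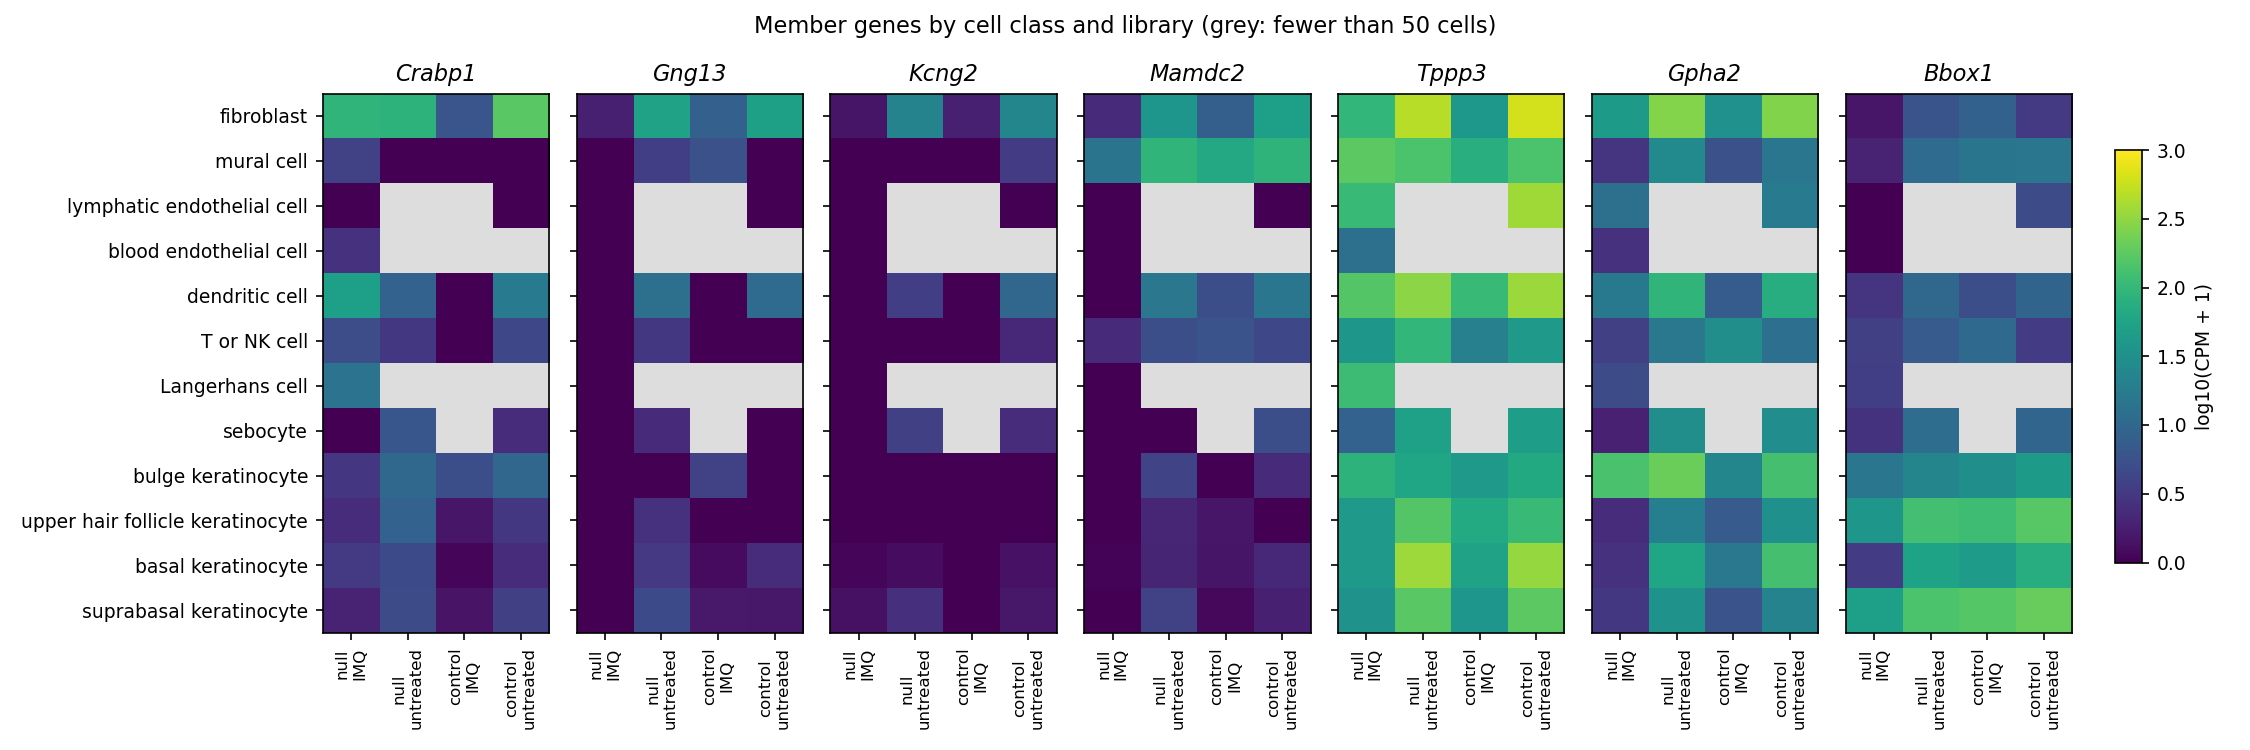
Levels of the 7 genes by cell class (rows) and library (columns, 1 library each), as log10 of CPM + 1. Crabp1, Gng13 and Kcng2 are bright in fibroblasts of untreated skin, Mamdc2 in mural cells and fibroblasts, and Bbox1 in suprabasal and upper hair follicle keratinocytes. Grey marks a class with fewer than 50 cells in that library.

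Under imiquimod 6 of the 7 members were at least 2-fold lower in labelled null fibroblasts, beside 16.9% of 12604 measured genes, and 6 of 7 were in control fibroblasts, beside 10.6% of 12592. At least 2-fold higher were 0 of 7 in the labelled null, beside 5.61%, and 1 of 7 in the control, beside 10.3%. The shared ones were Gng13, Kcng2, Mamdc2, Tppp3 and Gpha2. The exceptions differed: Crabp1 in the labelled null and Bbox1 in the control. The median log2 ratio of the members was -3.25 in the labelled null and -3.06 in the control, where that of all measured genes was -0.24 and 0.01. Since these contrasts chose the members, nothing is read from those shares. Fibroblasts of treated and untreated skin also fell mostly into different clusters: clusters 27 and 29 held most labelled null imiquimod cells, cluster 28 most control imiquimod cells, and clusters 0, 1, 5 and 11 most untreated cells. The retinoid binder comes first below, then the signalling and channel subunits, the matrix protein, the tubulin partner, the hormone subunit and the carnitine enzyme.

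Crabp1, the retinoic acid binder, had 91.9 CPM (2342 UMIs in 3146 cells) in labelled null imiquimod fibroblasts and 86.2 CPM (1049 UMIs in 1952 cells) in labelled null untreated fibroblasts, a ratio of 1.07 (0.991 to 1.15). In control fibroblasts it had 5.15 CPM (54 UMIs in 2354 cells) under imiquimod and 168 CPM (3703 UMIs in 3278 cells) without, 32.6-fold lower (24.9 to 43.4). Control imiquimod was thus the 1 low library of the 4, and control untreated the highest. In fibroblasts without a suprabasal keratinocyte marker UMI, a subset chosen after seeing the data, the log2 ratio was -1.88 in the labelled null, and -1.28 in the control from 8 UMIs in 78 imiquimod cells and 506 UMIs in 889 untreated cells. A Crabp1 UMI was found in 19.8% of labelled null imiquimod and 9.58% of labelled null untreated fibroblasts, and in 0.892% and 14.6% of the control pair. In basal keratinocytes, which should lack the gene, at 4480 to 14393 median UMIs against 4393 to 8026 in fibroblasts, the shares were 2.44%, 2.11%, 0.0673% and 0.722%. After thinning every cell to 1000 UMIs the fibroblast shares were 6.10%, 3.43%, 0.425% and 5.34% in the same order of libraries, with the same library lowest.

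The Crabp1 UMIs of untreated skin sat in very few cells. In labelled null untreated skin 13 of 187 positive fibroblasts held 50% of them, with up to 85 UMIs in 1 cell, and in control untreated skin 10 of 477 held 50.8%, with up to 455. In labelled null imiquimod skin it took 96 of 622 positive cells to hold 50%, and no cell had more than 40. The labelled null pair was near-equal in Crabp1 CPM only. It had 2342 Crabp1 UMIs in 3146 fibroblasts under imiquimod and 1049 in 1952 without, so these counts of cells are not on an equal footing. As a share of the UMIs, the 10 highest cells held 11.2% under imiquimod and 43.9% without. The labelled null pair thus differed in spread over cells, with less of the UMIs in the highest cells under imiquimod. Only 21 fibroblasts of control imiquimod skin had a Crabp1 UMI.

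**Figure D2:**
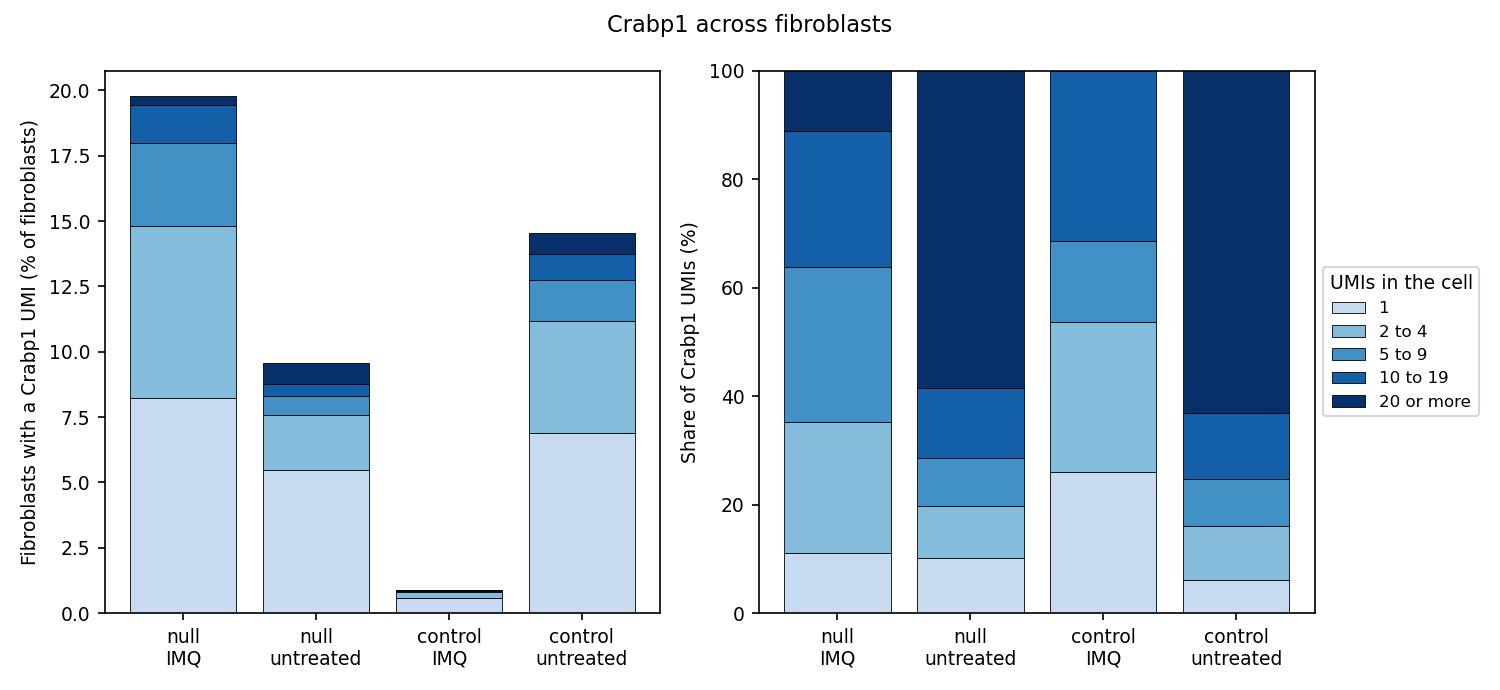
Left, the share of fibroblasts with a Crabp1 UMI in each of the 4 libraries, split by the number of UMIs in the cell. Right, the share of all Crabp1 UMIs held by those cells; cells with 20 or more UMIs hold most of the UMIs in both untreated libraries and little in labelled null imiquimod skin.

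Cluster 6, led by Igfbp3, Wif1 and Slc26a7, was the fibroblast cluster with at least 50 cells in all 4 libraries. Members had been left out of the genes used for clustering. In it Crabp1 had 229 CPM in 99 labelled null imiquimod cells and 1199 CPM in 142 labelled null untreated cells, 5.24-fold lower (4.25 to 6.51). In the control pair it had 61.1 CPM in 105 imiquimod cells and 2327 CPM in 250 untreated cells, 38.1-fold lower (24.1 to 64.4). This cluster held 71.1% of the Crabp1 UMIs of labelled null untreated fibroblasts and 70.2% of those of control untreated fibroblasts. Under imiquimod most labelled null UMIs lay elsewhere, 69.3% in cluster 29 (Pla2g2e, Saa1, Slpi) and 26.4% in cluster 27 (Hba-a1, Plac8, Hbb-bs). Without cluster 6 the labelled null log2 ratio was 1.77 and within it -2.39, so the class totals mix unlike clusters. Within cluster 6 alone, 3 of 3 measured members were at least 2-fold lower in the labelled null, beside 9.45% of 5566 genes, and 2 of 3 in the control, beside 14.5% of 6649. The haemoglobin genes that lead cluster 27 are of erythroid cells: the 5 erythroid markers summed to 169 CPM in labelled null imiquimod fibroblasts and 15.9 CPM in labelled null untreated ones, and to 0.954 and 10.3 CPM in the control pair, and their part in the Crabp1 values was not tested.

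Gng13, the G protein gamma subunit, had 0.824 CPM (21 UMIs) in labelled null imiquimod fibroblasts and 52.8 CPM (643 UMIs) in labelled null untreated ones, 64.1-fold lower (41.6 to 104). In control fibroblasts it had 7.25 CPM (76 UMIs) under imiquimod and 49.5 CPM (1094 UMIs) without, 6.83-fold lower (5.41 to 8.74). Both imiquimod libraries were low and both untreated ones high, and the labelled null imiquimod library was the lowest. Gng13 was in 0.604% of labelled null imiquimod and 21.1% of labelled null untreated fibroblasts, and in 2.76% and 20.4% of the control pair. The shares in basal keratinocytes were 0%, 1.13%, 0.135% and 0.412%. Among untreated clusters Gng13 was highest in cluster 5 (Gpx3, Mlana, Tnmd), at 152 CPM in the labelled null and 141 CPM in the control.

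Kcng2, the Kv2 modifier, had 0.471 CPM (12 UMIs) in labelled null imiquimod fibroblasts and 20.8 CPM (253 UMIs) in labelled null untreated ones, 44.1-fold lower (24.8 to 86.5). In control fibroblasts it had 0.858 CPM (9 UMIs) under imiquimod and 22.6 CPM (500 UMIs) without, 26.4-fold lower (13.8 to 58.0). The pairs looked alike, with almost no UMIs in either imiquimod library. Kcng2 was in 0.381% of labelled null imiquimod and 10.7% of labelled null untreated fibroblasts, against 0.382% and 12.7% in the control pair. In basal keratinocytes those shares were at most 0.232%, so the level under imiquimod is close to background. Kcng2 was highest in cluster 11 (F13a1, Fxyd6, Pla2g7) of both untreated libraries, at 34.6 CPM in the labelled null and 37.6 CPM in the control.

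Across 39 combinations of class and library, Gng13 and Kcng2 had the closest levels of any member pair, with a Pearson r of 0.93 on log2(CPM + 10). Those combinations share libraries and depth, and r describes class totals only. Within fibroblasts the genes seldom met: after thinning to 1000 UMIs, none of 100 Gng13-positive cells of labelled null untreated skin had a Kcng2 UMI, against 2.48% of the Gng13-negative cells. In control untreated skin 1 of 157 did, or 0.637%, against 2.24%. The sparse counts limit this to a description.

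Mamdc2, the secreted MAM domain proteoglycan, had 1.30 CPM (33 UMIs) in labelled null imiquimod fibroblasts and 36.4 CPM (443 UMIs) in labelled null untreated ones, 28.1-fold lower (19.7 to 41.3). In control fibroblasts it had 7.06 CPM (74 UMIs) under imiquimod and 49.0 CPM (1082 UMIs) without, 6.94-fold lower (5.48 to 8.91). In control fibroblasts without a suprabasal marker UMI its log2 ratio was -0.81, from 4 and 183 UMIs, which is under the 2-fold mark. As for Gng13, both imiquimod libraries were low and the labelled null one lowest, close to the 1.35 CPM of T or NK cells there. That T or NK cell level is a single count, 1 UMI. Mamdc2 was in 0.922% of labelled null imiquimod and 16.2% of labelled null untreated fibroblasts, and in 2.97% and 19.9% of the control pair. Cluster 11 had the highest untreated level, 114 CPM in the labelled null and 149 CPM in the control. In mural cells Mamdc2 had 13.1 CPM in labelled null imiquimod skin and 90.4 CPM in labelled null untreated skin, 6.91-fold lower (3.63 to 13.9), from 14 and 35 UMIs. The control mural pair, at 63.0 CPM under imiquimod and 87.9 CPM without, differed by 1.40-fold with an interval that includes 1 (0.739 to 2.79).

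Tppp3, the tubulin partner, had 95.6 CPM (2436 UMIs) in labelled null imiquimod fibroblasts and 473 CPM (5754 UMIs) in labelled null untreated ones, 4.94-fold lower (4.71 to 5.19). In control fibroblasts it had 38.7 CPM (406 UMIs) under imiquimod and 630 CPM (13909 UMIs) without, 16.3-fold lower (14.7 to 18.0). Here control imiquimod was the lowest library. Tppp3 was broad in untreated fibroblasts, from 411 to 589 CPM over the labelled null clusters and from 506 to 715 CPM over the control ones. It was in 33.1% of labelled null imiquimod and 73.2% of labelled null untreated fibroblasts, and in 11.5% and 80.3% of the control pair. T or NK cells, at 2233 to 3839.5 median UMIs against 4393 to 8026 in fibroblasts, had shares of 10.2%, 13.9%, 5.33% and 9.0%.

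Gpha2, the hormone subunit, had 42.3 CPM (1077 UMIs) in labelled null imiquimod fibroblasts and 276 CPM (3364 UMIs) in labelled null untreated ones, 6.54-fold lower (6.10 to 7.01). In control fibroblasts it had 32.1 CPM (337 UMIs) under imiquimod and 268 CPM (5924 UMIs) without, 8.35-fold lower (7.48 to 9.34). Class levels were close in the pairs. In cluster 6, which alone was filled by both libraries of each pair, Gpha2 had 1 UMI under imiquimod and 20 without in the labelled null, 14.2-fold lower (2.27 to 588), and 3 and 19 UMIs in the control, 1.67-fold lower (0.492 to 8.81) and under the 2-fold mark. Gpha2 was in 15.5% of labelled null imiquimod and 41.8% of labelled null untreated fibroblasts, and in 9.26% and 36.2% of the control pair, where T or NK cells had 1.14%, 4.05%, 2.67% and 3.11%. In CPM, T or NK cells of control imiquimod skin had 29.0, from 6 UMIs in 75 cells, so the fibroblast level there lies near a background that is known only coarsely. The shares of cells there were further apart, 9.26% and 2.67%, at 4393 median UMIs in fibroblasts and 2233 in T or NK cells. Basal keratinocytes of that library had 14.9 CPM, from 124 UMIs. In untreated skin it was high in clusters 0, 1 and 11, from 270 to 369 CPM in the labelled null and 305 to 398 CPM in the control, and low in clusters 5 and 6, from 17.0 to 44.3 CPM in either.

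Bbox1, the carnitine enzyme, was scarce in fibroblasts, with 0.510 CPM (13 UMIs) in labelled null imiquimod skin and 5.01 CPM (61 UMIs) in labelled null untreated skin, and with 7.54 CPM (79 UMIs) and 2.22 CPM (49 UMIs) in the control pair. It was 9.82-fold lower (5.34 to 19.5) in the labelled null and 3.40-fold higher (2.35 to 4.95) in the control. T or NK cells, which should lack it, had 2.70 and 6.31 CPM in the labelled null pair and 9.66 and 2.30 CPM in the control pair, on 2 or 3 UMIs each, so the fibroblast level is at background. The 9 suprabasal keratinocyte markers differed the same way within fibroblasts: their sum was 357 CPM in labelled null imiquimod and 1002 CPM in labelled null untreated fibroblasts, and 1133 and 265 CPM in the control pair. Of 7 measured markers, 6 were at least 2-fold lower in the labelled null and 6 at least 2-fold higher in the control, with 1 or 2 of the 9 at 0 in each library. Their part in the Bbox1 values was not tested.

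**Figure D3:**
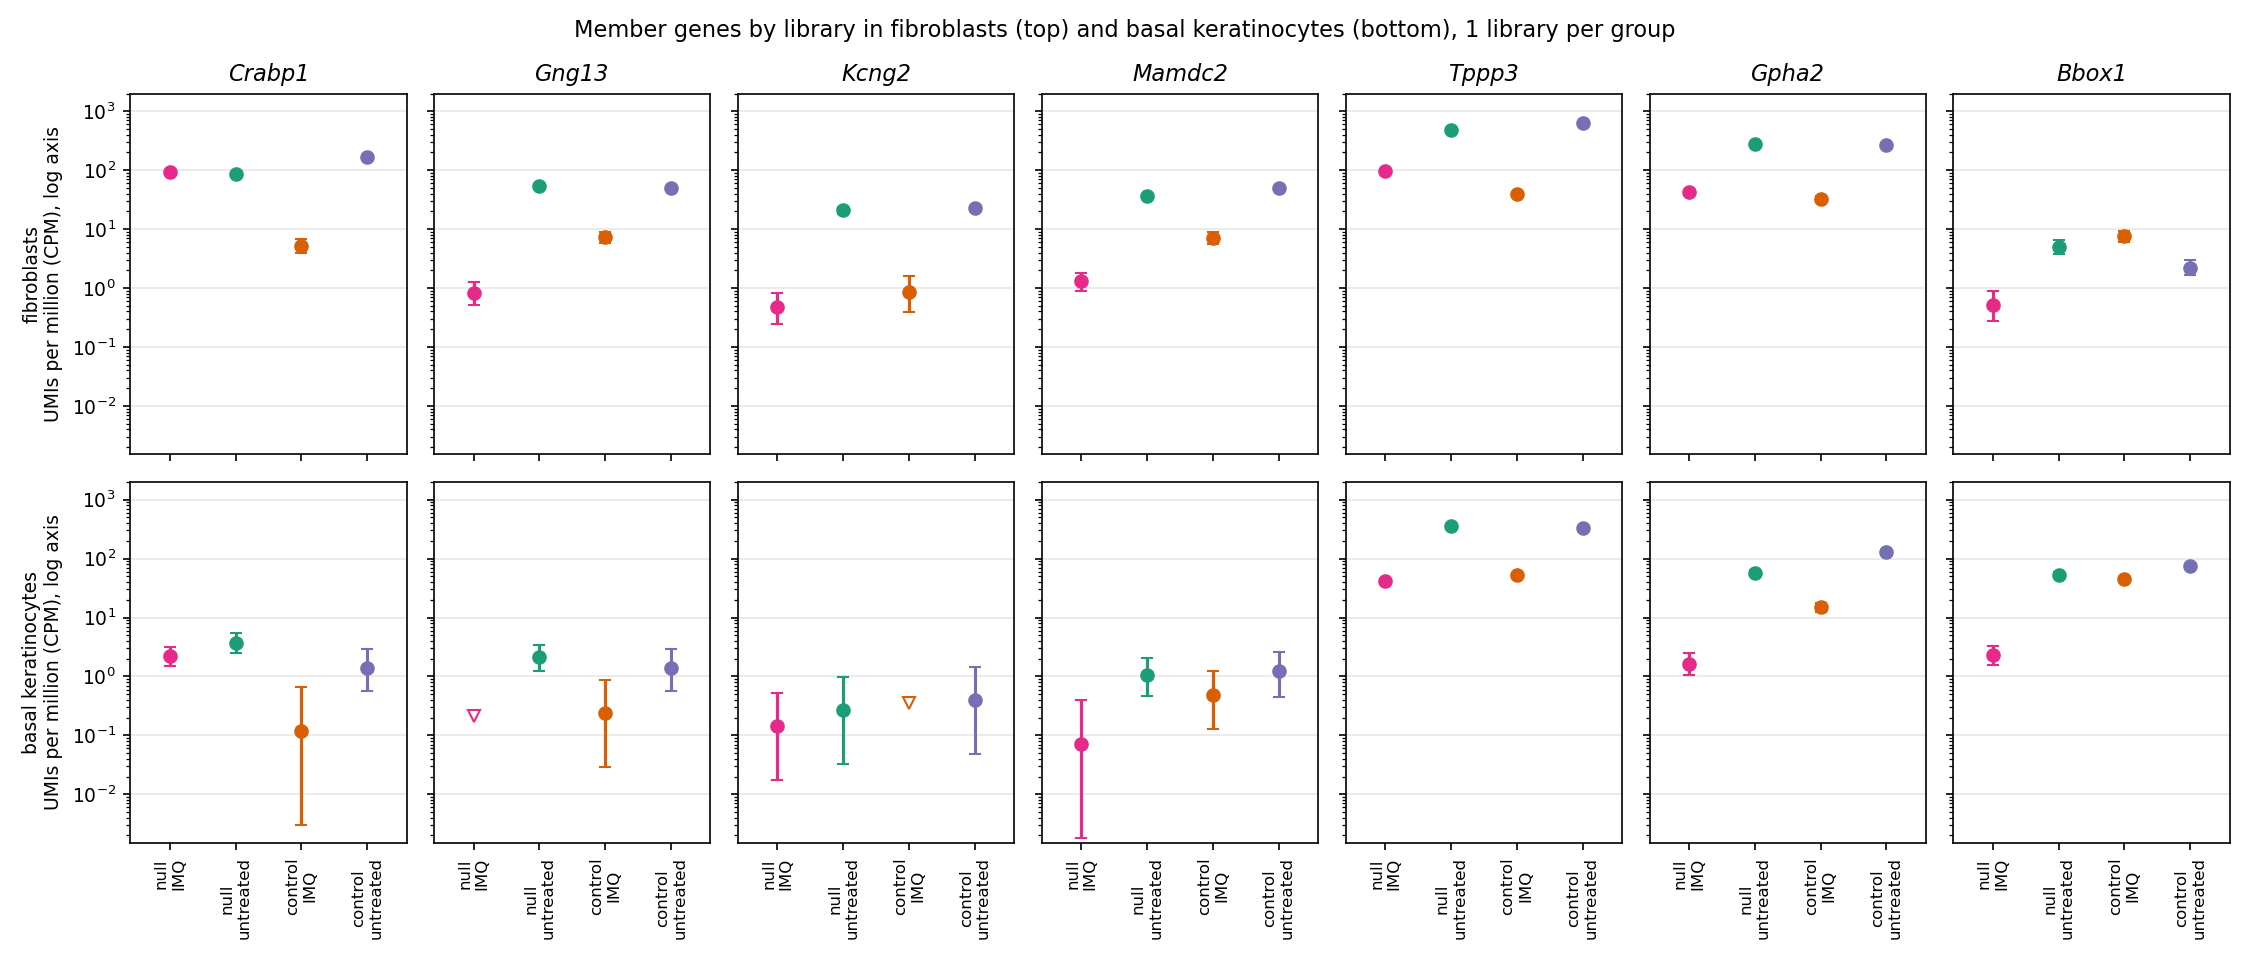
CPM of each gene in fibroblasts (top) and basal keratinocytes (bottom) in the 4 libraries on a log axis, with exact Poisson 95% intervals that cover counting error only. Open triangles mark 0 UMIs, drawn at the level of 3 UMIs; Tppp3, Gpha2 and Bbox1 are the members with more than 40 CPM in untreated basal keratinocytes.

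In basal keratinocytes 4 members were measured in the labelled null pair, of which 3 were at least 2-fold lower under imiquimod, beside 18.6% of 11627 measured genes. In the control pair 3 were measured and 2 were lower, beside 5.53% of 11090. None was at least 2-fold higher in either pair, beside 9.04% and 4.67%. In clusters that both libraries filled, 3 of 3 measured members were lower in the labelled null, beside 14.9%, and 2 of 3 in the control, beside 5.33%. For the labelled null that was cluster 3 alone, with 84 imiquimod and 459 untreated cells. Its leading genes Sostdc1, Krt79 and Defb6 are on the upper hair follicle marker list. Tppp3, Gpha2 and Bbox1 had 9, 0 and 2 UMIs in it under imiquimod and 473, 86 and 101 without, so they counted as measured through the untreated library. Over all measured genes the median log2 ratio was -0.20 and -0.19. The genes carrying this class were Tppp3, Gpha2 and Bbox1. Crabp1, Gng13, Kcng2 and Mamdc2 had at most 31 UMIs in any library there, and Crabp1 was the only one measured, at 2.23 CPM in labelled null imiquimod and 3.72 CPM in labelled null untreated cells.

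Tppp3 had 41.5 CPM (576 UMIs in 862 cells) in labelled null imiquimod basal keratinocytes and 358 CPM (2691 UMIs in 1327 cells) in labelled null untreated ones, 8.63-fold lower (7.88 to 9.46). In the control pair it had 52.2 CPM (436 UMIs in 1486 cells) and 336 CPM (1662 UMIs in 970 cells), 6.44-fold lower (5.79 to 7.17). Untreated levels and ratios were much alike in the pairs, and the labelled null imiquimod level was near the 37.8 CPM of T or NK cells. Cycling cells of cluster 16, led by Hist1h2ap, Ube2c and Cenpf, had the highest untreated levels, 806 CPM in the labelled null and 763 CPM in the control. The 107 control imiquimod cells of that cluster had 58.0 CPM, 13.2-fold lower (9.86 to 17.9) than the 81 untreated ones, and labelled null imiquimod skin had 17 such cells, too few to compare.

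Gpha2 had 1.66 CPM (23 UMIs) in labelled null imiquimod basal keratinocytes and 57.7 CPM (434 UMIs) in labelled null untreated ones, 34.9-fold lower (22.9 to 55.6). In the control pair it had 14.9 CPM (124 UMIs) and 128 CPM (632 UMIs), 8.61-fold lower (7.09 to 10.53). Both imiquimod levels were under those of T or NK cells, 2.70 CPM in the labelled null and 29.0 CPM in the control. Those T or NK cell levels rest on 2 and 6 UMIs, so the basal levels lie near a background that is known only coarsely. Cluster 10 (Jchain, Calm5, Atp1b1) held most Gpha2 UMIs of untreated basal cells, at 66.1 CPM in the labelled null and 190 CPM in the control. It had 0 cells in labelled null imiquimod skin and 69 in control imiquimod skin.

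Bbox1 had 2.30 CPM (32 UMIs) in labelled null imiquimod basal keratinocytes and 53.6 CPM (403 UMIs) in labelled null untreated ones, 23.3-fold lower (16.2 to 34.5). In the control pair it had 44.9 CPM (375 UMIs) and 73.7 CPM (364 UMIs), 1.64-fold lower (1.42 to 1.90), which did not reach the 2-fold mark. The labelled null imiquimod library was alone in its low level, which was under the 2.70 CPM (2 UMIs) of T or NK cells. The same held further up the epidermis. Suprabasal keratinocytes had 48.5 CPM in labelled null imiquimod and 142 CPM in labelled null untreated skin, 2.92-fold lower (2.55 to 3.36), and 160 and 201 CPM in the control pair, 1.26-fold lower (1.14 to 1.38). Upper hair follicle keratinocytes had 37.5 and 125 CPM in the labelled null pair and 117 and 167 CPM in the control pair, 3.34-fold and 1.43-fold lower.

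Levels of the marker lists of other cell types in basal keratinocytes differed between libraries too. The 8 fibroblast markers summed to 806 CPM in labelled null imiquimod and 3241 CPM in labelled null untreated basal cells, and to 1359 and 2223 CPM in the control pair. At least 2-fold lower were 6 of 8 in the labelled null and 4 of 8 in the control, and no marker was at 0. In the cells of each library that had the lower fibroblast marker share, an alternative chosen after seeing the data, the log2 ratios of Tppp3, Gpha2 and Bbox1 were -3.07, -5.13 and -4.29 in the labelled null and -2.72, -2.91 and -0.72 in the control. That of Crabp1 in the labelled null was -1.55 there, from 9 and 15 UMIs, against -0.74 in all cells. The neutrophil marker list summed to 13451 CPM in labelled null imiquimod and 2.53 CPM in labelled null untreated basal cells. In the control pair it summed to 109 and 4.86 CPM. That list holds S100a8 and S100a9, which lead cluster 24 of labelled null imiquimod skin beside Krt6a and Fabp5. Only 1 cell of that library was named a neutrophil. The sum does not tell neutrophil RNA from RNA of the keratinocytes themselves, and this was not tested. All 3 measured neutrophil markers in the labelled null and 2 of 2 in the control were at least 2-fold higher, and 2 or 3 of 7 were at 0 in each library. Their part in these ratios was not tested.

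**Figure D4:**
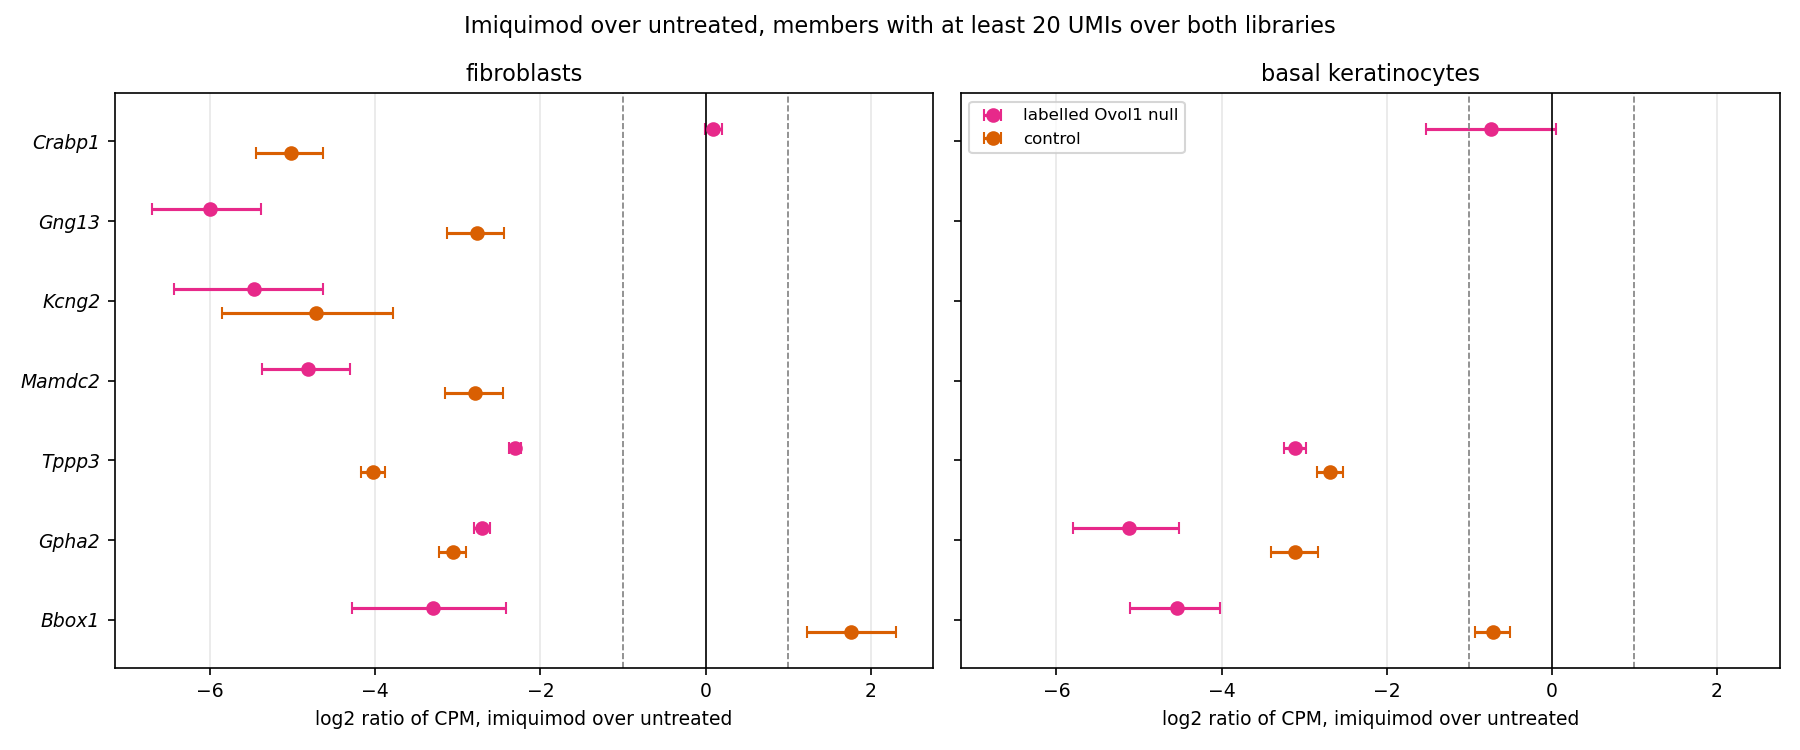
Log2 ratio of CPM, imiquimod over untreated, for each measured member in fibroblasts (left) and basal keratinocytes (right), with exact conditional 95% intervals for counting error only and dashed lines at 2-fold. Crabp1 in labelled null fibroblasts sits near 0 and Bbox1 in control fibroblasts lies right of 0; all other fibroblast points lie left of the lower dashed line.

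Other keratinocytes shared part of these decreases. In suprabasal keratinocytes 6 of 6 measured members were at least 2-fold lower under imiquimod in the labelled null, beside 22.5% of genes, and 2 of 3, Tppp3 and Gpha2, in the control, beside 4.4%. The 6 include Crabp1, Gng13 and Mamdc2, of whose labelled null untreated UMIs fibroblasts held 91.9%, 91.7% and 84.2%. Gng13 had 22 UMIs in all labelled null imiquimod cells, 21 of them in fibroblasts, so it counted as measured through the untreated library. The part of fibroblast RNA in these values was not tested. In upper hair follicle keratinocytes 4 of 4, Crabp1 among them, were lower in the labelled null, beside 16.5%, and 1 of 3, Gpha2, in the control, beside 5.33%. Tppp3 in suprabasal keratinocytes had 34.1 CPM in labelled null imiquimod and 172 CPM in labelled null untreated skin, 5.05-fold lower (4.32 to 5.93), and 36.3 and 173 CPM in the control pair, 4.77-fold lower (4.11 to 5.55). Bulge keratinocytes, the hair follicle stem cells, had 0 of 3 lower in the labelled null, beside 6.97%, and 1 of 3 in the control, beside 6.9%. In bulge keratinocytes Gpha2 had 137 CPM in labelled null imiquimod and 211 CPM in labelled null untreated skin, 1.54-fold lower (1.23 to 1.93). In the control pair it had 22.9 and 130 CPM, 5.67-fold lower (3.33 to 10.3), so control imiquimod was the low library. Tppp3 there had 86.1 and 58.8 CPM in the labelled null pair and 40.1 and 66.2 CPM in the control pair. In mural cells Tppp3 had 174 and 139 CPM in the labelled null pair, an interval of the ratio from 0.916 to 1.72, and 76.5 and 139 CPM in the control pair.

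Dendritic cells of untreated skin had UMIs of the fibroblast members as well, with 11.7 CPM of Gng13 in the labelled null and 10.1 CPM in the control, and 298 and 351 CPM of Tppp3. The 8 fibroblast markers summed to 20060 CPM in those labelled null cells and 45309 CPM in those control cells, so that the class carried much fibroblast RNA. Under imiquimod the sums were 15084 CPM in the labelled null and 9971 CPM in the control, with 0 of 7 and 6 of 8 measured markers at least 2-fold lower and none at 0. Their part in the dendritic cell values was not tested.

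Set against control, labelled null fibroblasts of untreated skin had ratios of 0.743 to 1.07 for Gng13, Kcng2, Mamdc2, Tppp3 and Gpha2. None of the 7 was at least 2-fold lower, beside 1.38% of 12677 measured genes, and 1 was at least 2-fold higher, beside 4.82%. That 1 was Bbox1, at 2.26 (1.53 to 3.36), at background levels. Crabp1 stood at 0.514 (0.479 to 0.551), just short of the mark, at 0.515 (0.474 to 0.559) within cluster 6 and at 1.15 (0.924 to 1.42) within cluster 5. Within cluster 11 it was 3.47-fold lower (2.74 to 4.45) in the labelled null, from 78 and 601 UMIs. Since 13 fibroblasts of labelled null untreated skin held 50% of the Crabp1 UMIs and 10 of control untreated skin held 50.8%, these ratios can turn on few cells. The intervals do not cover that. In untreated basal cells Gpha2 was 2.22-fold lower (1.96 to 2.51) in the labelled null, 1 of 5 measured members beside 1.07% of 11047 genes. Crabp1 was 2.63-fold higher there, from 28 and 7 UMIs, beside 2.41%. These directions rest on the genotype labels, which the Ovol1 UMIs did not check.

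Under imiquimod 5 of the 7 members stood at least 2-fold apart between labelled null and control fibroblasts. Gng13, Mamdc2 and Bbox1 were at least 2-fold lower in the labelled null, 3 of 7 beside 14.1% of 12374 measured genes, with 8.79-fold (5.37 to 15.0) for Gng13 and 5.45-fold (3.57 to 8.48) for Mamdc2. Crabp1 was 17.8-fold higher (13.6 to 23.8) and Tppp3 2.47-fold higher (2.22 to 2.75), 2 of 7 beside 5.16%. Most of these cells lay in different clusters, 29 in the labelled null and 28 in the control. In the clusters with at least 50 cells of both, Crabp1 was at 0.837 (0.570 to 1.28) in cluster 27 and 3.75-fold higher (2.26 to 6.58) in cluster 6, and Tppp3 was 2.50-fold higher (1.53 to 4.40) in cluster 27. Kcng2 at 0.549 (0.212 to 1.47) was not distinguishable at this depth, and Gpha2 stood at 1.32 (1.16 to 1.49). In basal cells Gpha2 was 8.97-fold lower (5.72 to 14.7) and Bbox1 19.5-fold lower (13.6 to 28.9) in the labelled null, 2 of 4 measured members beside 14.5% of 11621 genes, and Crabp1 was higher from 31 UMIs against 1, beside 11.0%. Genotype label, animal, library and depth cannot be told apart with 1 library per group.

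As a difference of log2 ratios, labelled null minus control, the imiquimod ratio in fibroblasts differed by 5.12 for Crabp1 and 1.72 for Tppp3, and by -3.23 for Gng13, -2.02 for Mamdc2 and -5.06 for Bbox1. For Kcng2 it was -0.74 and for Gpha2 0.35. In basal cells it was -3.83 for Bbox1, -2.02 for Gpha2 and -0.42 for Tppp3. These differences share the libraries of the comparisons above and were not tested.

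**Figure D5:**
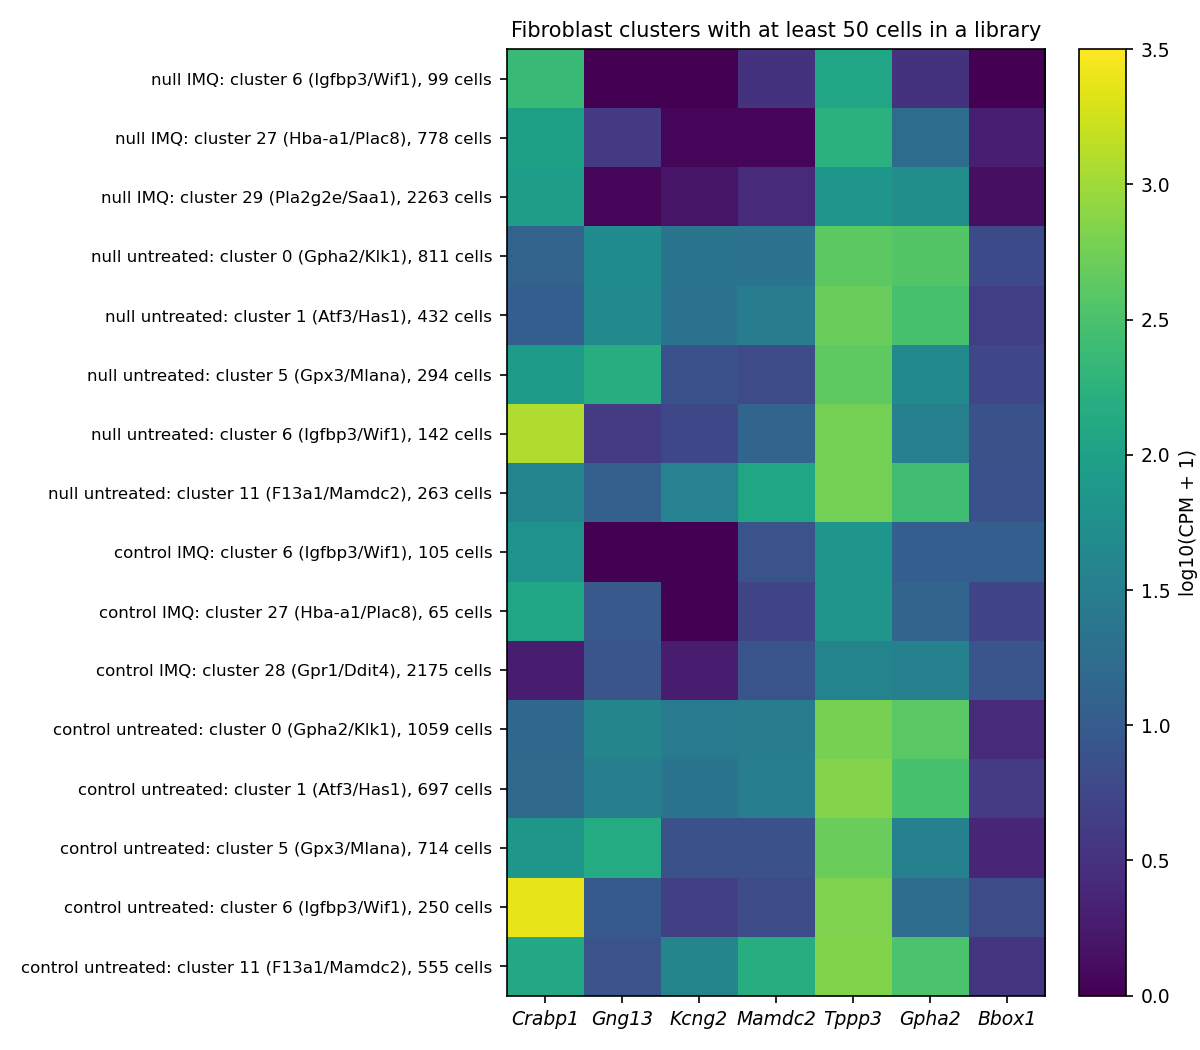
Levels of the 7 genes in fibroblast clusters with at least 50 cells in a library, as log10 of CPM + 1, with library, cluster, its leading genes and its number of cells in each row. Crabp1 is brightest in cluster 6 of both untreated libraries, Gng13 in cluster 5, Mamdc2 and Kcng2 in cluster 11, and Gpha2 in clusters 0, 1 and 11.

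For the gene lists around the members, the shares to set beside each count in fibroblasts are those of all measured genes: 16.9% lower and 5.61% higher in the labelled null, and 10.6% lower and 10.3% higher in the control. Among retinoid genes other than Crabp1, 4 of 17 measured were at least 2-fold lower in labelled null fibroblasts and 2 higher, and 2 of 17 were lower and 3 higher in control fibroblasts. The median log2 ratio was -0.25 and 0.07. Cyp26b1, which degrades retinoic acid, had 879 CPM in labelled null imiquimod and 159 CPM in labelled null untreated fibroblasts, and 676 and 134 CPM in the control pair, so it was high in both imiquimod libraries. Aldh1a1, which makes retinoic acid, had 88.2 and 93.99 CPM in the labelled null pair and 504 and 126 CPM in the control pair. Crabp2, the other cytoplasmic binder, was 2.23-fold and 3.02-fold lower. The receptor Rarb had 0.196 and 3.04 CPM in the labelled null pair, 15.5-fold lower (6.07 to 50.5) from 5 and 37 UMIs, and 1.14 and 2.17 CPM in the control pair, with a ratio interval that includes 1 (0.255 to 1.01).

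Of G protein beta and gamma genes other than Gng13, 1 of 13 was lower and 1 higher in labelled null fibroblasts, with a median log2 ratio of 0.00, and 2 of 12 were lower and 2 higher in control fibroblasts, with a median of -0.30. Gng8 was lower in both, by 2.38-fold (1.55 to 3.65) and 11.8-fold (4.91 to 36.9), and Gngt2 was higher in both, by 3.04-fold and 2.29-fold. Of 11 other Kv2 channel and modifier genes only Kcns3 was measured in either pair, at ratios of 0.779 and 2.29. Of MAM domain genes, 4 of 6 were lower in labelled null fibroblasts and 1 of 6 in control ones, with medians of -1.17 and -0.23. Mdga1 was lower in both, 6.45-fold (4.42 to 9.61) and 4.45-fold (3.03 to 6.78).

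Tubulin and Tppp family genes around Tppp3 had unlike counts in the pairs. In labelled null fibroblasts 1 of 13 was at least 2-fold lower and 4 higher, with a median log2 ratio of 0.39, and in control fibroblasts 7 of 13 were lower and 1 higher, with a median of -1.62. The other 8 in the labelled null and 5 in the control lay within 2-fold. Tuba4a was higher in both, 3.13-fold and 3.14-fold. Tuba1a had 748 CPM in labelled null imiquimod and 822 CPM in labelled null untreated fibroblasts, and 295 and 1037 CPM in the control pair. Tubb6 had 70.5 and 29.9 CPM in the labelled null pair and 11.8 and 41.9 CPM in the control pair. Tppp, the closest relative, was lower in both, 6.02-fold (3.34 to 11.4) and 3.18-fold (1.76 to 6.21), as Tppp3 was.

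No other glycoprotein hormone or receptor gene was measured around Gpha2. Of 8 measured carnitine genes other than Bbox1, none was lower in fibroblasts and Cpt1a, the mitochondrial carnitine transferase, was 2.94-fold higher in the labelled null and 2.77-fold higher in the control. In the labelled null Slc25a20, the carnitine carrier, was also higher, by 2.08-fold. In basal cells, where Bbox1 was lower, Cpt1a was 2.08-fold higher in the labelled null and 2.53-fold higher in the control. Of 7 measured carnitine genes in the labelled null, Cpt1c was the 1 at least 2-fold lower, from 5 and 17 UMIs, beside 18.6% of all measured genes. Cpt1a was the 1 higher, beside 9.04%. In control basal cells 0 of 6 were lower, beside 5.53%, and 1 was higher, beside 4.67%.

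Markers of dermal layers were mixed as well. Of papillary dermis and dermal papilla genes, 5 of 13 were lower and 3 higher in labelled null fibroblasts, and 5 of 15 were lower and 1 higher in control ones. Wif1 was 5.28-fold and 3.67-fold lower and Lef1 3.99-fold and 4.56-fold lower, while Coch was 13.0-fold and 5.50-fold higher. Of reticular dermis and fascia genes, 3 of 11 were lower and 3 higher in the labelled null, and 5 of 11 were lower and 2 higher in the control. Ly6a and Ly6c1 were higher in both, 6.11-fold and 6.05-fold in the labelled null and 2.19-fold and 2.80-fold in the control.

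Ranked by ratio among genes with at least 50 untreated UMIs, Gng13 had the lowest ratio of 9480 in labelled null fibroblasts, Kcng2 was at rank 4 and Mamdc2 at 12, while Crabp1 was at 6715. In control fibroblasts Crabp1 was at rank 11 and Kcng2 at 15 of 10450, and Tppp3 followed at 27. Crabp1 stood between Lypd1, with 3 UMIs under imiquimod and 309 without, and Slc26a7, with 9 and 585. In labelled null fibroblasts the gene next to Gng13 was Baiap2l1, with 4 and 128 UMIs. In basal keratinocytes Gpha2 was at rank 8, Bbox1 at 21 and Tppp3 at 71 of 8296 in the labelled null, and Gpha2 was at rank 3, Tppp3 at 8 and Bbox1 at 587 of 6961 in the control. Plcb1, with 3 and 65 UMIs, and Lyz2, with 6 and 114, stood on each side of Gpha2 in the labelled null.

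The genes with levels most like each member, over 39 combinations of class and library and among 12424 genes, were Tnn for Crabp1 (Pearson r 0.89 on log2(CPM + 10)), Nkain4 for Gng13 (0.94) and for Kcng2 (0.97), and Cacna1g for Mamdc2 (0.93). For Gpha2 it was Gli3 (0.82), for Bbox1 Tmprss13 (0.94), and for Tppp3 Igfbp5 (0.71).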

How the data were processed

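Cells of mouse back skin were measured with Chromium 3′ v2 chemistry. The deposited values are raw UMI counts per gene and barcode, in 1 table for 4 libraries told apart by a barcode suffix. Per the submitters' processing notes the authors used Cell Ranger 2.1.0 and build mm10. Whether depth was made equal when libraries were combined is not stated in the sources at hand.

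Barcodes needed 200 genes and no more than 10% mitochondrial UMIs, and Scrublet calls were left out (1.90%, 0.113%, 1.53% and 1.94% in labelled null imiquimod, labelled null untreated, control imiquimod and control untreated). Under 0.5%, the caller had not worked in labelled null untreated skin. In all 22498 of 23455 barcodes stayed. Scanpy 1.11.5 gave 30 clusters over all libraries from 2000 variable genes without the 7 members, 30 components, 15 neighbours and Leiden resolution 1. A cluster took a name from at least 3 markers, each 2-fold above the median cluster with 10 CPM added and in 10% of cells; that rule was chosen after seeing the data. Cells of unnamed clusters took the name from a clustering of their own library. A class needed 50 cells.

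UMIs were summed per class and library. Intervals are exact Poisson for CPM, exact conditional binomial for ratios and Clopper-Pearson for shares, at 95%, and cover counting error only; with 1 library per group there is no test of a condition. Ratio intervals were run on simulated Poisson counts, which follow the model that the intervals assume. That checks the computation only, since UMIs clumped in few cells were not simulated. For the ratios of the 7 members, edgeR 4.0.16 and DESeq2 1.42.0 scaling of the counts served as alternatives. Lists were compared on class UMI totals only. The genes named are the 7 members, list genes at least 2-fold apart, the 3 most correlated genes of each member (the closest is given), neighbours in rank by ratio (with 0.5 UMI added) and leading genes of clusters. Members and lists were chosen with earlier results of these data known.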

Additional observations from a re-analysis of the deposited data

Results flagged for a closer look

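For 3 measured results the imiquimod ratios pointed opposite ways in the genotype pairs with counting intervals that left out 1 on both sides; with 1 library per group these differences were not tested. Bbox1 in fibroblasts was lower under imiquimod in the labelled null and higher in the control, a difference of log2 ratios of -5.06 (labelled null minus control), at levels found also in T or NK cells. Crabp1 in dendritic cells was 6.19-fold higher under imiquimod in the labelled null, from 25 and 6 UMIs, whereas the control pair had 0 and 25 UMIs. The 8 fibroblast markers summed in those dendritic cells to 15084 and 20060 CPM in the labelled null pair and to 9971 and 45309 CPM in the control pair. The part of fibroblast RNA in this result was not tested. Tppp3 in bulge keratinocytes was higher under imiquimod in the labelled null and lower in the control, a difference of 1.27 on the log2 scale, from 86 and 56 UMIs in the labelled null pair and 28 and 53 in the control pair. Tppp3 in mural cells and Crabp1 in fibroblasts also had ratios on opposite sides of 1, differing by 1.18 and 5.12 on the log2 scale, but the labelled null interval included 1 in each.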

How the results depend on the processing

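Of 261 values of 21 member ratios under 12 other processing choices and 4 more that were chosen after seeing the data, 208 stayed within the counting interval, 53 moved beyond it and none of the ratios of at least 2-fold turned direction. Of 225 values for ratios of at least 2-fold, 222 remained so; the exceptions were log2 ratios of -0.81 for Mamdc2 (without cells with a suprabasal marker UMI), -0.74 for Gpha2 (shared clusters only) and 0.79 for Bbox1 (doublets kept), all in control fibroblasts. Crabp1 in labelled null fibroblasts ranged from -2.39 to 1.77, and in control fibroblasts from -5.25 (shared clusters only) to -1.28 (without cells with a suprabasal marker UMI). Using only clusters that both libraries filled, 3 members (labelled null) and 2 (control) of 3 measured were at least 2-fold lower in fibroblasts. Without cells with a suprabasal marker UMI, which left 262 imiquimod and 57 untreated labelled null fibroblasts, 3 of 3 were. With 1 UMI in place of 20, 5 of 7 (labelled null) and 6 of 7 (control) were lower in basal keratinocytes. No share of all genes was computed at that threshold, so nothing is read from these counts. Untreated basal cells had only 28, 16, 2 and 8 UMIs of Crabp1, Gng13, Kcng2 and Mamdc2 in the labelled null. In the control they had 7, 7, 2 and 6. Leaving out basal cells with a fibroblast marker UMI left 3 and 0 cells in the labelled null pair and 9 and 2 in the control pair, and gave no value. The causes were not tested. Low UMI counts limit Kcng2 and fibroblast Bbox1 most. No paired analysis was possible because each group has 1 library.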
